A study of Mus musculus with 20 samples.

Results

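The loci of 6 regulators of myeloid blood cell development, Spi1, Cebpa, Cebpb, Irf8, Csf1r and Gfi1, were examined for 4 histone modifications in fetal and adult hematopoietic stem cells (HSCs). The data examined are all peaks that overlapped 1 of 6 fixed windows of the mm9 genome by at least 1 bp, namely chr2:90900001-90960000 for Spi1, chr7:35890001-35960000 for Cebpa (the gene and an enhancer at +37 kb), chr2:167500001-167530000 for Cebpb, chr8:123250001-123330000 for Irf8, chr18:61255001-61300000 for Csf1r and chr5:108135001-108165000 for Gfi1. These windows held 172 of the 218887 peaks in the 8 lists of the series, with 40 at Spi1, 30 at Cebpa, 24 at Cebpb, 43 at Irf8, 11 at Csf1r and 24 at Gfi1. The windows were set by gene, and the genes were chosen with earlier results of these data known.

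The cells came from B6129SF1 mice, with no allele, transgene or treatment named, and were sorted as Lin-, Sca1+, cKit+ and CD135- from fetal liver at embryonic day 14.5 or from adult bone marrow at 6 to 8 weeks. Each chromatin immunoprecipitation (ChIP) used 50000 sorted cells. The labels give 2 replicates of each mark and stage, but the peaks were deposited as 1 combined list per mark and stage, so that no value has a replicate error. No test between stages was possible, and a difference between stages cannot be told apart from one between libraries or between runs of the peak caller. How many mice were pooled is not given in the sources used here, and the sorted cell type was not checked against marker genes.

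As background, myeloid cells arise from HSCs through a small network of transcription factors. PU.1, the product of Spi1, and C/EBP-alpha, the product of Cebpa, open and activate myeloid genes, and Spi1 is already active at a low level in stem cells. C/EBP-beta (Cebpb) acts in granulocyte production under stress and in macrophages, IRF8 (Irf8) directs monocyte and dendritic cell fates, GFI1 (Gfi1) is a repressor that favours granulocytes and restrains stem cell proliferation, and Csf1r encodes the receptor for macrophage colony-stimulating factor. Promoters in use or ready for use carry H3K4me3. Acetylation at H3K27 goes with activity, at enhancers as well as promoters, whereas H3K4me1 is typical of enhancers whether active or not. Polycomb proteins deposit H3K27me3 at genes they keep silent. A promoter with both H3K4me3 and H3K27me3 is called bivalent.

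The promoters of Cebpa, Irf8 and Cebpb are shown because their windows differed in H3K27me3. The window of Cebpa had it in the fetal list only, that of Irf8 at both stages and that of Cebpb at neither. Whether the mark lay on the printed bases was not determined. Each line gives the 250 bases before the gene's first listed start in RefSeq (GRCm38.p6, 5′ to 3′ on the + strand), with CG dinucleotides, the sites of DNA methylation and of CpG islands, in capitals. Their GRCm38.p6 positions are chr7:35119043-35119292 for Cebpa, chr8:120736108-120736357 for Irf8 and chr2:167688665-167688914 for Cebpb, and these cannot be compared with the mm9 positions of the peaks.
Cebpa: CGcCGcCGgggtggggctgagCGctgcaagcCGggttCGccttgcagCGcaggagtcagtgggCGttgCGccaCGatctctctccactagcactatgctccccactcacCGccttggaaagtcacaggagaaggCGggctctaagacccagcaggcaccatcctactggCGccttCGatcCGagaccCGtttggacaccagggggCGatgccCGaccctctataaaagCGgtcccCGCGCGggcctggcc
Irf8: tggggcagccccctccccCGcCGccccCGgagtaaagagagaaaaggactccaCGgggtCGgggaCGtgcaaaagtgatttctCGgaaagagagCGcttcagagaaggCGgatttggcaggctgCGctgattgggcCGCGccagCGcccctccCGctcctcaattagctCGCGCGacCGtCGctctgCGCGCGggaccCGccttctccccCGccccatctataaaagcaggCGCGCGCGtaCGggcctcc
Cebpb: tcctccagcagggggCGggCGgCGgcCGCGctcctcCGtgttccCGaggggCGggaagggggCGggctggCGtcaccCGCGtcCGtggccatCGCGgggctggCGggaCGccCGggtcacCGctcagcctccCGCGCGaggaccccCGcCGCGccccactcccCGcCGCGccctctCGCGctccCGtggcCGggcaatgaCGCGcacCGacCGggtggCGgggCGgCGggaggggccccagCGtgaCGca
RefSeq promoters were examined for 4 of the 6 genes (Cebpa, Cebpb, Irf8 and Gfi1), with 6 start sites. Those of Spi1 and Csf1r were not examined, which does not mean that RefSeq lists none for them. The sequence of Cebpa held 22 CG dinucleotides and that of Irf8 29, against a median of 6 over 32851 promoters. As many were found in 14.8% and 6.78% of all promoters. Cebpb had 41, a number reached by 1.09% of promoters, so that the most CG-rich of these sequences belonged to a locus with no H3K27me3 peak. The other start of Irf8 had 8 CG dinucleotides, and the starts of Gfi1 had 9 and 13. Motifs of 4 families of blood transcription factors were searched on both strands of these 6 sequences. The ETS core GGAAGT, which PU.1 binds, had no match in them and is found in 19.7% of all promoters of this length. The C/EBP motif TTGCNNAA matched once, at a start of Gfi1, and is found in 9.56%. The RUNX motif TGTGGT had no match and is found in 14.0% of promoters. The motif AGATAA of GATA factors had no match either and is found in 9.99%.

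Over the 6 windows, H3K4me3 peaks numbered 9 in the fetal and 8 in the adult list and covered 32.4 and 22.0 kb. The ratio of fetal to adult covered length was 1.47 in the windows and 0.987 over the whole lists. H3K27ac peaks numbered 22 and 17 and covered 48.5 and 40.4 kb, a ratio of 1.20 against 1.51 over the whole lists. For H3K4me1 there were 94 fetal and 15 adult peaks, covering 83.8 and 3.98 kb. This ratio of 21.1 was close to the 20.4 of the whole lists, which hold 92784 fetal and 12517 adult peaks. H3K27me3 was the rarest mark, with 4 fetal peaks covering 7.10 kb and 3 adult peaks covering 1.10 kb. This was a ratio of 6.45 against 4.10 over the whole lists, where the mark was also more extensive in the fetal list. By number the whole lists went the other way, with 14823 fetal and 22964 adult H3K27me3 peaks, of median width 1406 and 278 bp. H3K27me3 was found at Cebpa and Irf8 in the fetal list and at Irf8 and Gfi1 in the adult list. Neither list had it at Spi1, Cebpb or Csf1r.

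**Figure D1:**
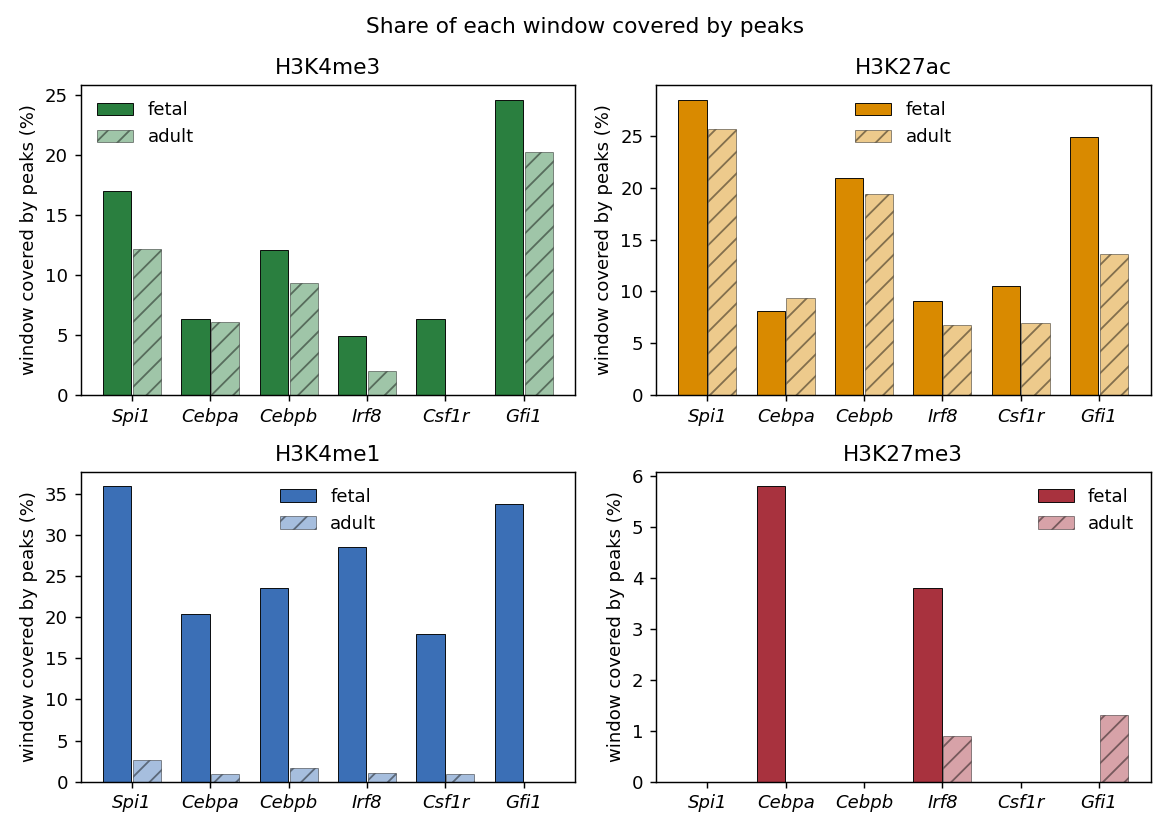
Share of each window covered by peaks (%, y axis) for the 6 genes (x axis), with 1 panel per mark, solid bars for fetal and hatched bars for adult lists; the y axes differ between panels. H3K27me3 covers 5.80% of the Cebpa window in the fetal and 0% in the adult list, and H3K4me1 covers 17.9% to 35.9% of each window in the fetal and at most 2.68% in the adult list.

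Peaks of the windows were then compared between stages. Of the fetal H3K4me3 peaks 7 of 9 overlapped an adult peak, against 91.0% of all fetal H3K4me3 peaks, and all 8 adult peaks overlapped a fetal one, against 92.8%. The 2 fetal H3K4me3 peaks without an adult counterpart lay at Spi1 and Csf1r. For H3K27ac, 13 of 22 fetal peaks and 15 of 17 adult peaks were shared, against 65.3% and 88.6%. For H3K4me1, 13 of 94 fetal peaks and 14 of 15 adult peaks were shared, against 9.22% and 87.4%. Of the H3K27me3 peaks 1 of 4 fetal and 1 of 3 adult were shared, against 35.5% and 92.4%, and the shared peak was at Irf8. The 95% Clopper-Pearson intervals were 40.0% to 97.2% for fetal H3K4me3, 36.4% to 79.3% for fetal H3K27ac, 7.57% to 22.5% for fetal H3K4me1 and 0.840% to 90.6% for adult H3K27me3. Each holds the whole-list share except the last, and all cover counting error only. The last rests on 3 peaks, and the 2 not shared were both at Gfi1, with scores of 64.88 and 50.12, near the lowest score of 50. With only peaks at or above the median score of each list, 1 adult H3K27me3 peak remained and was shared.

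At the H3K4me3 peaks, H3K27ac was present at 9 of 9 in the fetal and 7 of 8 in the adult list, against 74.2% and 75.7% of all H3K4me3 peaks. Fetal H3K4me1 overlapped 9 of 9, against 84.9%, and adult H3K4me1 1 of 8, against 10.1%. H3K4me3 peaks that overlapped H3K27me3 of the same stage were counted as bivalent, without a test that both marks lay on the same chromatin. They numbered 2 of 9 in the fetal list (22.3% of all fetal H3K4me3 peaks) and 2 of 8 in the adult list (12.9%). The fetal ones were at Cebpa and Irf8 and the adult ones at Irf8 and Gfi1. The call at Gfi1 came from H3K27me3 peaks of 244 and 145 bp, with scores of 64.88 and 50.12, near the lowest score of 50. With only peaks at or above the median score of each list, neither adult locus was bivalent. At Gfi1 the H3K27me3 peaks were dropped. At Irf8 the adult H3K27me3 peak, above 82.7% of its list by score, stayed, and the adult H3K4me3 peak, above 34.5%, was dropped. In what follows, the promoter-like region of a locus is the stretch covered by its widest H3K4me3 peak at either stage, and distances are from the centre of the widest fetal H3K4me3 peak, in the direction of rising coordinates. No mm9 gene model was at hand, so peaks were not assigned to exons, introns or start sites.

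**Figure D2:**
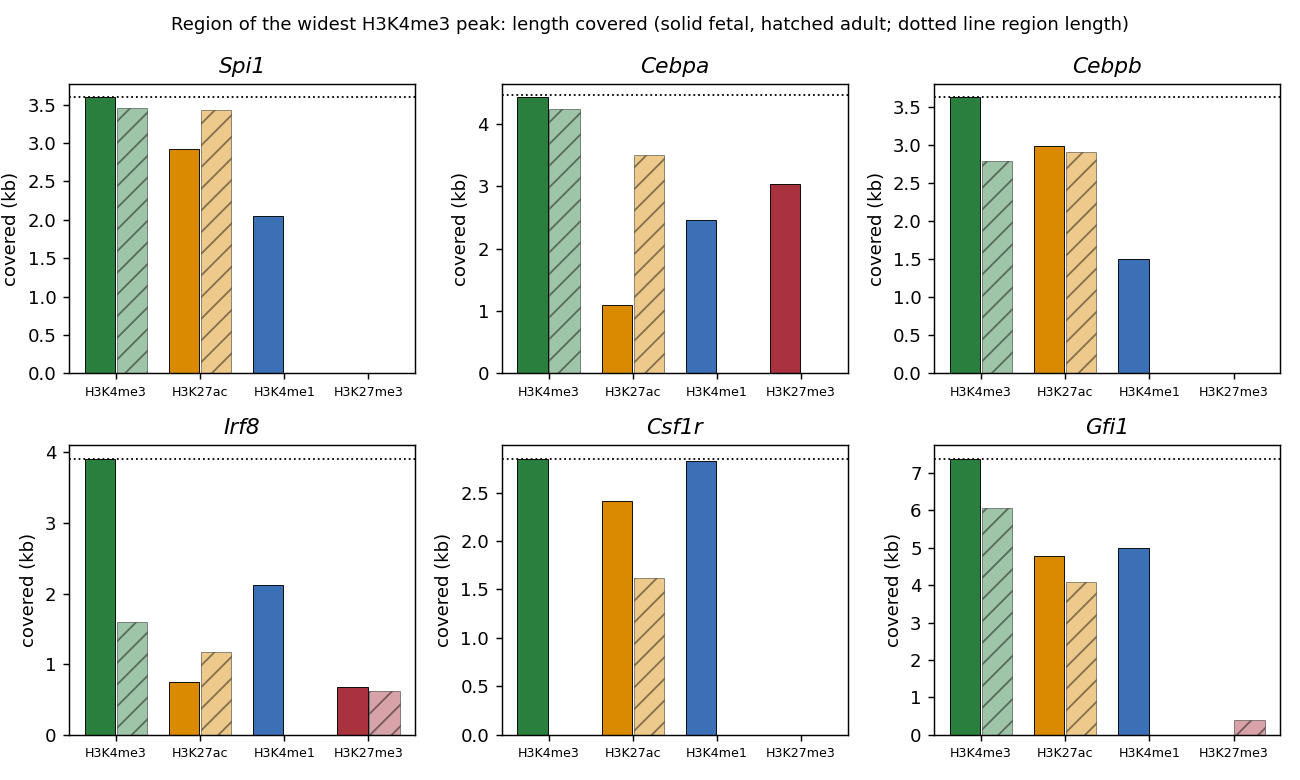
Length of the promoter-like region covered by each mark (kb, y axis; the scale differs between panels) at the 6 loci, solid bars for the fetal and hatched bars for the adult list, with the region's length as a dotted line. At Cebpa the fetal list has 1096 bp of H3K27ac and 3039 bp of H3K27me3, and the adult list 3503 bp of H3K27ac and none of H3K27me3.

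Cebpa, the gene of a factor needed for the step from multipotent to granulocyte and monocyte progenitors, had different combinations of marks at the 2 stages. H3K4me3 was alike in extent, with a fetal peak of 4428 bp at chr7:35902454-35906881 and an adult peak of 4236 bp at chr7:35902407-35906642. Both had a score of 3100, the value at which scores pile up in these lists. Within this region of 4475 bp, fetal H3K27me3 covered 3039 bp (67.9%) and adult H3K27me3 none. H3K27ac covered 1096 bp (24.5%) in the fetal and 3503 bp (78.3%) in the adult list. By overlap of peaks, the locus was thus bivalent in the fetal list and had H3K4me3 and H3K27ac without H3K27me3 in the adult list. Whether the fetal marks lay in the same cells was not tested.

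The fetal H3K27me3 was listed as 2 peaks, of 1987 bp at chr7:35901389-35903375 and 2070 bp at chr7:35904233-35906302, whose scores of 464.23 and 586.77 were above 68.5% and 72.0% of the fetal list. The nearest adult H3K27me3 peak was 64.3 kb away, at chr7:35968671-35969353, outside the window. Of 15397 H3K4me3 regions present at both stages, 8.27% had H3K27me3 in the fetal list only, so that this pattern was not rare. The fetal H3K27ac peak, at chr7:35904231-35905326, had a score of 160.94, above 34.1% of its list, and 1094 of its 1096 bp lay under fetal H3K27me3. The adult peak, at chr7:35902624-35906126, had a score of 926.65, above 77.4% of its list. The adult-to-fetal ratio of H3K27ac length in the region was 3.20. Among the 11313 H3K4me3 regions with both marks at both stages, 2 (0.0177%), Cebpa included, had a ratio at least as high. This ratio was chosen after the values had been seen and has no replicate error.

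Among distal sites at Cebpa, the element nearest to the enhancer distance of 37 kb was centred at 37.1 kb, at chr7:35940281-35943157, and had H3K27ac at both stages. Its fetal H3K27ac peak, at chr7:35940306-35943157, was 2852 bp wide with a score of 638.09, above 68.7% of its list, and its adult peak 2041 bp with a score of 151.78, above 32.7%. With only peaks at or above the median score of each list, the adult peak was lost and the element was fetal only. Fetal H3K4me1 covered 2543 bp of it and adult H3K4me1 159 bp. In the fetal list this distal peak was therefore wider and ranked higher than the promoter peak, and in the adult list the promoter peak was wider and ranked higher than the distal one. Another element, centred at 7.8 kb, had H3K27ac in the fetal list only (1716 bp), and one at 31.6 kb in the adult list only (1015 bp). The score of this adult peak was 51.33, near the lowest score of any list, which is 50.

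Spi1 had no H3K27me3 at either stage, and the nearest peaks of this mark lay 155.0 kb (fetal) and 157.0 kb (adult) away. Its widest H3K4me3 peak was 3594 bp in the fetal list, at chr2:90936169-90939762, and 3451 bp in the adult list, at chr2:90936207-90939657. In this region H3K27ac covered 2922 bp (81.3%) in the fetal and 3434 bp (95.5%) in the adult list. The corresponding H3K27ac peaks scored above 95.6% and 95.2% of their lists. The adult-to-fetal ratio of H3K27ac length was 1.18, and 9.61% of 11313 regions had a ratio at least as high. This ratio was chosen after the values had been seen. The promoter-like region of Spi1 was thus similar at both stages in extent of H3K4me3 and in rank of H3K27ac, with H3K27ac longer in the adult list.

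A second strongly acetylated stretch lay upstream. The widest fetal H3K27ac peak of the window, at chr2:90917783-90927986, spanned 10204 bp, wider than 99.8% of its list, with a score of 3100. Adult peaks covered 8751 bp of it in 3 pieces. The widest of these, at chr2:90921709-90927344, was 5636 bp, wider than 99.1% of the adult list, and centred at -13.4 kb. Spi1 is known for an upstream regulatory element, an autoregulated enhancer bound by PU.1 itself; its coordinates were not available here, so that the stretch was not matched to it. The widest fetal H3K4me1 peak of all 6 windows, 8985 bp at chr2:90921688-90930672, lay over the same stretch. The widest adult H3K4me1 peak of the 6 windows, 906 bp at chr2:90922054-90922959, lay there too, and was wider than 99.9% of its list. H3K4me3 separated the stages at this place. The fetal list had a peak of 2994 bp centred at -14.3 kb, at chr2:90922129-90925122, with a score of 441.96, above 31.0% of its list, and the adult list had none. All 2994 bp carried H3K27ac at both stages. Further H3K4me3 peaks at about -27.5 kb and -19.0 kb were present at both stages. Slc39a13 and Psmc3 are the nearest protein-coding genes on that side in RefSeq (GRCm38.p6), and which gene these peaks belong to was not determined.

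Irf8 combined H3K4me3, H3K27me3 and low-scoring H3K27ac at both stages. H3K4me3 was longer in the fetal list and H3K27ac of the promoter-like region longer in the adult list. The fetal H3K4me3 peak, at chr8:123259455-123263364, was 3910 bp wide with a score of 2129.15, and the adult peak, at chr8:123259558-123261162, was 1605 bp with a score of 568.81. They were wider than 96.9% and 40.0% of their lists. The fetal-to-adult ratio of H3K4me3 length was 2.44, and among 15397 regions present at both stages 10 (0.0649%), Irf8 included, had a ratio at least as high. This ratio, too, was chosen after the values had been seen.

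H3K27me3 lay at the lower-coordinate edge of the Irf8 region at both stages. The fetal peak was 1483 bp at chr8:123258652-123260134 and the adult peak 712 bp at chr8:123259368-123260079, wholly inside the fetal one. They covered 680 and 625 bp of the region. Bivalence at both stages was found at 12.8% of the shared H3K4me3 regions. H3K27ac at the region was short, with 754 bp in the fetal and 1179 bp in the adult list, and its scores of 58.5 and 82.71 were above 4.90% and 16.2% of the lists. By H3K27ac rank this was the lowest of the 6 promoter-like regions at both stages. The adult-to-fetal ratio of H3K27ac length was 1.56, and 1.87% of 11313 regions had a ratio at least as high. This ratio was likewise chosen after the values had been seen.

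H3K27ac at Irf8 was also found away from this region. It was present at both stages at elements centred at 7.1, 14.2 and 55.6 kb. The widest of these, at chr8:123274087-123277096, had 2223 bp of fetal H3K27ac, at chr8:123274833-123277055, and 1808 bp of adult H3K27ac, at chr8:123275125-123276932. The element at 55.6 kb, at chr8:123316214-123317758, had 1245 and 1261 bp. All H3K27ac peaks of the Irf8 window, distal ones included, scored below the median of their lists, and with only peaks at or above it the covered length was 0 at both stages. Elements at -12.0 and 25.7 kb had H3K27ac in the fetal list only, with 1973 and 1549 bp. A fetal H3K27me3 peak of 1560 bp at 63.9 kb, at chr8:123324553-123326112, had no adult counterpart. The next protein-coding gene on that side is Foxf1 in RefSeq (GRCm38.p6).

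**Figure D3:**
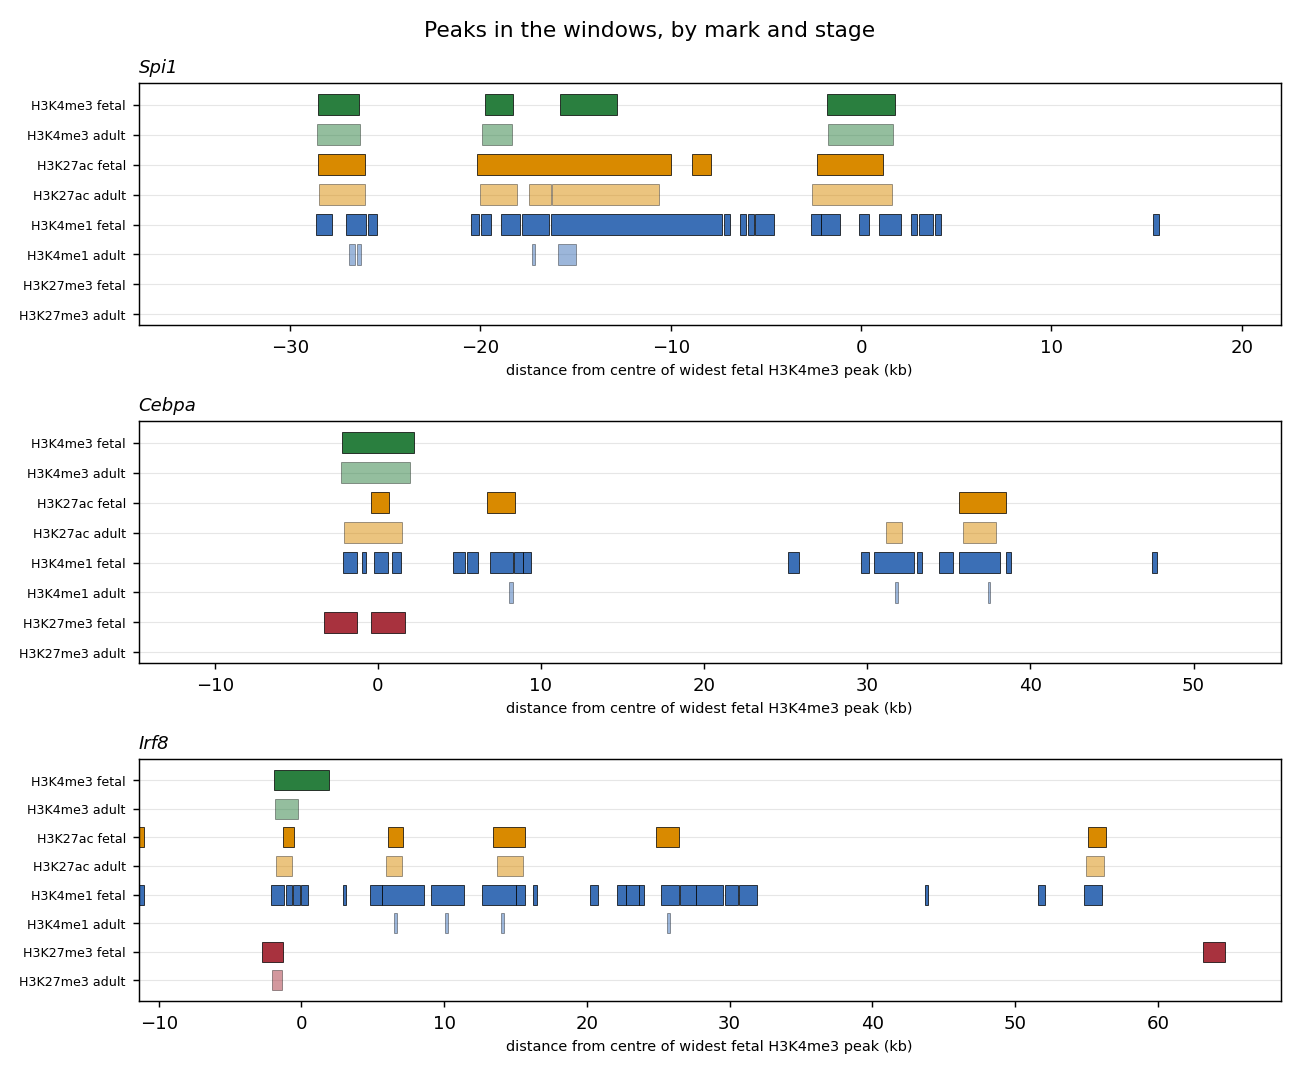
Positions of all peaks in the windows of Spi1, Cebpa and Irf8, with 1 row per mark and stage (solid colour fetal, pale colour adult) and the distance from the centre of the widest fetal H3K4me3 peak on the x axis (kb). H3K27me3 is absent at Spi1, fetal only at Cebpa and present at both stages at Irf8, and the distal H3K27ac peaks at 37.1 kb (Cebpa) and 55.7 kb (Irf8) have adult counterparts.

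Cebpb had an active promoter-like region with no H3K27me3 at either stage. Its H3K4me3 peak was 3619 bp in the fetal list, at chr2:167513669-167517287, and 2788 bp in the adult list, at chr2:167513950-167516737. The fetal-to-adult ratio of H3K4me3 length was 1.30, and 2.94% of shared regions had a ratio at least as high. This ratio, too, was chosen after the values had been seen. H3K27ac covered 2976 bp (82.2%) and 2900 bp (80.1%) of the region, from peaks of 3281 bp at chr2:167513364-167516644 and 3046 bp at chr2:167513523-167516568. These peaks scored above 89.7% and 90.7% of their lists. Of its 4 distal elements with H3K27ac, the widest, at 8.6 kb (chr2:167523301-167524786), had the mark at both stages, those at -9.4 and -3.1 kb were fetal only and the one at 11.7 kb adult only. The scores of the fetal-only peaks, 51.81 and 61.01, were near the lowest score of the list, and that of the adult-only peak was 167.43.

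Gfi1 had the widest H3K4me3 peaks of the 6 loci at both stages. The fetal peak, at chr5:108149214-108156590, was 7377 bp wide, wider than 99.9% of its list. In the adult list this stretch held 2 peaks, of 4959 bp at chr5:108151490-108156448 and 1102 bp at chr5:108150133-108151234, the wider of them wider than 99.0% of its list. The H3K27ac peaks were 4768 bp at chr5:108151688-108156455 in the fetal and 4083 bp at chr5:108151963-108156045 in the adult list, above 92.5% and 66.9% of their lists by score. H3K27me3 appeared in the adult list only, as peaks of 244 bp at chr5:108152027-108152270 and 145 bp at chr5:108156092-108156236, which covered 5.27% of the region. Their scores of 64.88 and 50.12 were near the lowest score listed. H3K27me3 in the adult list only was found at 0.344% of shared H3K4me3 regions, or 53 of 15397. An element at -5.6 kb, chr5:108146420-108148256, had fetal H3K27ac alone (1837 bp). Gfi1 was the only window with no adult H3K4me1 peak, against 15 fetal ones. The nearest adult H3K4me1 peak, of 165 bp, was centred at -23.4 kb, outside the window, and was included when the window was widened by 10 kb.

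Csf1r, the only receptor gene among the 6, was the only locus without an adult H3K4me3 peak. The fetal peak, at chr18:61265250-61268097, was 2848 bp wide with a score of 915.86, above 40.9% of its list. The nearest adult H3K4me3 peak was centred at -61.5 kb, outside the window. H3K27ac was present at both stages, with 3884 bp at chr18:61265684-61269567 in the fetal and 3123 bp at chr18:61266480-61269602 in the adult list. Their scores were 857.75 and 377.89, above 75.4% and 54.8% of the lists. Over all lists, 8.50% of H3K4me3 regions were fetal only, and of these 18.9% had H3K27ac at both stages as Csf1r did. Fetal H3K4me1 covered 2830 bp (99.4%) of the region, the highest share of the 6 regions, where it otherwise covered 41.4% to 67.7%. A further fetal-only H3K27ac peak at 24.9 kb, chr18:61291158-61291979, had a score of 54.22.

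**Figure D4:**
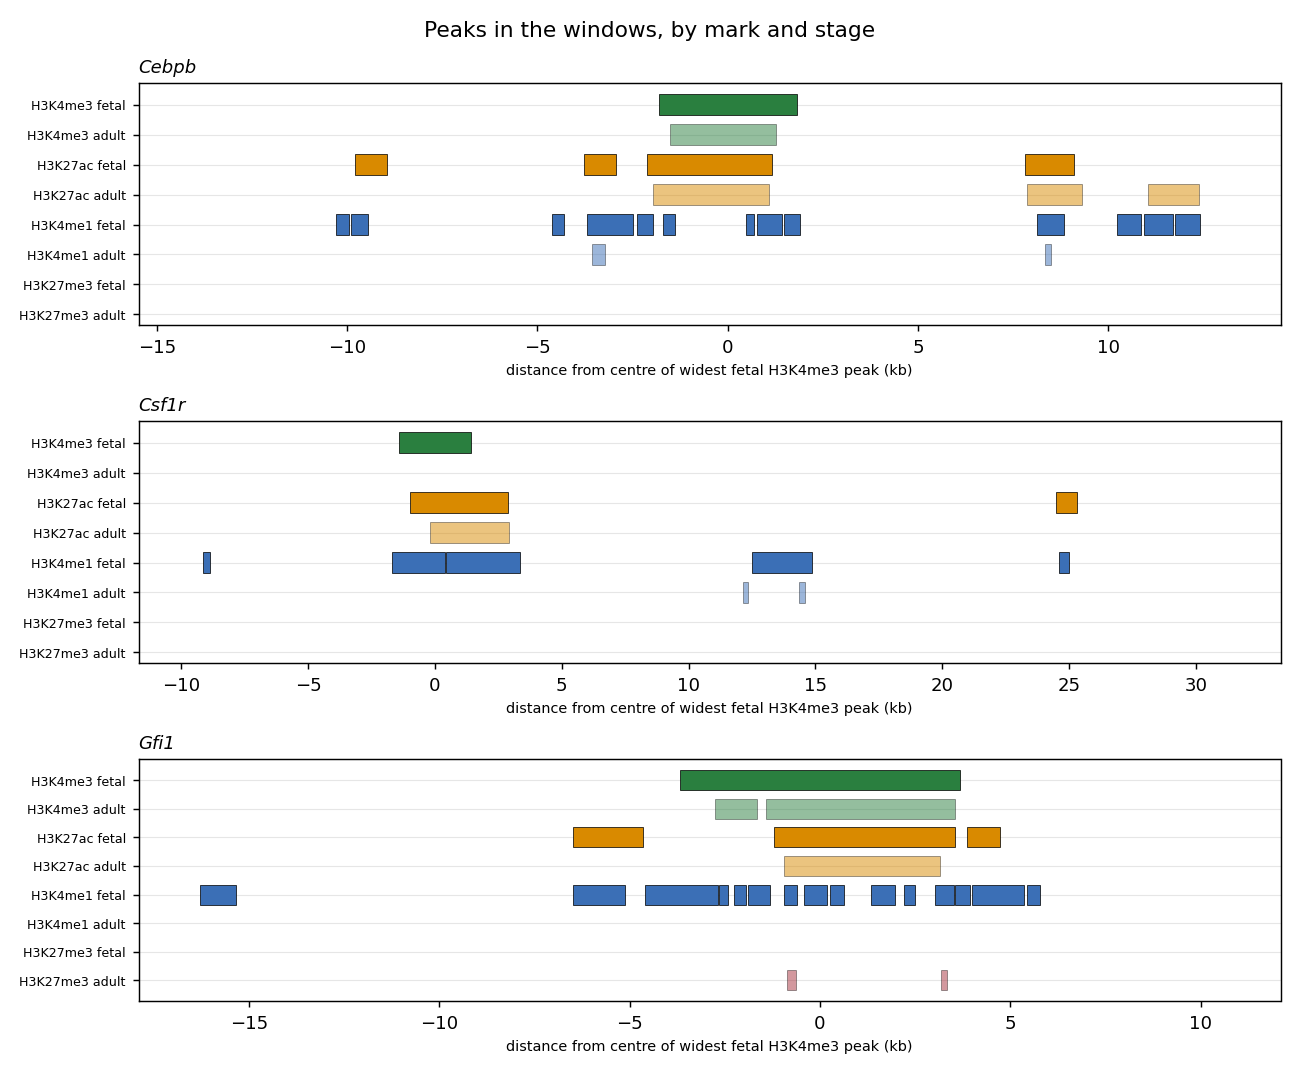
Positions of all peaks in the windows of Cebpb, Csf1r and Gfi1, with rows, colours and x axis (kb from the centre of the widest fetal H3K4me3 peak) as in the maps of Spi1, Cebpa and Irf8. The adult H3K4me3 row is empty at Csf1r, and the adult H3K27me3 row at Gfi1 holds 2 narrow peaks of 244 and 145 bp.

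Distal elements, which are merged H3K4me1 and H3K27ac peaks without H3K4me3 at either stage, numbered 54 in the windows, and 14 of them had H3K27ac, against 19.4% of all 57329 distal elements. The 95% interval of this share, 15.0% to 39.7%, holds that value. Acetylation was found at both stages at 5 of them, at 7 it was fetal only and at 2 adult only. The shares over all 11149 such elements were 30.2%, 61.4% and 8.35%, and the 95% Clopper-Pearson intervals of the windows' shares, 12.8% to 64.9%, 23.0% to 77.0% and 1.78% to 42.8%, hold them. The 5 elements of both stages were at Irf8 (3), Cebpa (1) and Cebpb (1). With only peaks at or above the median score, 0 of these 5 kept H3K27ac at both stages, and 4 had it at neither, as did all 7 fetal-only and both adult-only elements. Spi1 had 9 distal elements and none with H3K27ac, since its acetylated upstream stretch touched H3K4me3. Of the adult H3K27ac peaks in the windows, 8 of 17 overlapped adult H3K4me1, against 20.7% of all adult H3K27ac peaks. The 95% interval of 23.0% to 72.2% lies above that share. It covers counting error only, takes the peaks as independent though several share a locus, and was not corrected for the number of intervals given. Of the fetal H3K27ac peaks 22 of 22 overlapped fetal H3K4me1, against 88.1%. The widest adult H3K4me3 peak was also taken in each of the 5 windows that had one. Of these 5 peaks, 0 overlapped adult H3K4me1, where 10.1% of all adult H3K4me3 peaks did. The widest fetal H3K4me3 peaks of the 6 windows all overlapped fetal H3K4me1, where 84.9% of all fetal H3K4me3 peaks did.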

How the data were processed

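ChIP-seq was done for H3K4me3, H3K27ac, H3K4me1 and H3K27me3 in fetal and adult HSCs, with 2 replicates per group and 4 input samples among 20 samples. Reads were aligned with Bowtie2 2.2.2 to mm9, per the submitters' processing notes. The authors deposited 1 peak list per mark and stage, titled as combined, with a score per peak; the peak names start with MACS. The caller's settings, the control and the unit of the score are not given in the sources used here. Scores were therefore used only for rank within a list. The lists range from 12517 to 92784 peaks, the read depth is unknown, and the inputs were not analysed here. Lists that are called more or less deeply differ in peak number and width, which limits every comparison of stages.

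Windows, members and lists were chosen with earlier results of these data known. Only assembled chromosomes (1 to 19, X and Y) were kept. Overlap means at least 1 bp, and covered length is the union of peaks inside a window. Each window's widest H3K4me3, H3K27ac and H3K27me3 peaks and its widest acetylated distal element were to be given by position, and at Cebpa the element nearest 37 kb; others were chosen after their values were seen. No other myeloid gene was examined, since the lists carry no gene names. Overlap code was tested with short intervals planted in the middle of 200 peaks of each of the 8 lists. All were recovered, which their placement required of correct code. Comparing every peak with every planted interval gave the same counts. Python 3.11.15, numpy 2.4.6, scipy 1.17.1 and matplotlib 3.10.9 were used. Alternatives were the better-scoring peaks, equal numbers of peaks, merging within 1 kb, 50% coverage, windows widened by 10 kb, and peaks wholly inside a window.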

Additional observations from a re-analysis of the deposited data

How the results depend on the processing

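No paired analysis was possible because the deposited lists do not keep replicates apart, which also prevents leaving one out. Of 170 recomputed values over all windows 134 stayed within 1.5 times a count or length, or within a share's 95% interval, and 36 did not. Of 144 recomputed covered lengths of single loci, 26 moved by more than 1.5 times. The cause was not tested, except that fewer or merged peaks lower counts by construction. Some values could not move. Equal numbers of peaks trimmed only the longer list of each mark, and a length of 0 stayed 0 where peaks were only removed. The values that stayed include these, so their number overstates how stable the results were. With only peaks at or above their list's median score, peaks in the windows numbered 4 (adult H3K4me3), 7 and 8 (fetal and adult H3K27ac), 56 and 8 (fetal and adult H3K4me1) and 1 (adult H3K27me3). Covered lengths were 30914 bp (fetal H3K27ac), 2543 bp (adult H3K4me1) and 712 bp (adult H3K27me3). The shares found at the other stage were 85.7% for fetal H3K27ac, and 100% for adult H3K4me1 and adult H3K27me3. Of the widest fetal H3K4me3 peaks of each window 3 had H3K27ac, and 0 of the adult ones had H3K27me3. Distal H3K27ac was at both stages at 2 elements, fetal only at 1 (Cebpa, 37.1 kb) and adult only at 0. The 2 were at Spi1 and Csf1r and counted as distal only because their H3K4me3 peaks were dropped, and 0 of the 5 elements acetylated at both stages in the full lists stayed so. The H3K4me3 of Csf1r, the fetal H3K4me3 of Spi1 at -14.3 kb, the adult H3K4me3 of Irf8, the adult H3K27me3 of Gfi1, all H3K27ac of Irf8 and the fetal promoter H3K27ac and adult distal H3K27ac of Cebpa were lost under this setting. With equal numbers of top-ranked peaks, fetal H3K4me1 gave 25 peaks over 48174 bp, 44.0% of them shared and 0 bp at Cebpb, and adult H3K27me3 gave 1 peak over 712 bp, 100% shared. Bivalence was then found at 1 adult locus, fetal-only distal elements numbered 4, and distal elements without H3K27ac 9. With peaks merged within 1 kb, fetal H3K4me1 gave 33 peaks, 33.3% of them shared, and 12 distal elements lacked H3K27ac. With 50% of a peak covered, the shared share was 0 for fetal H3K4me1 and 0 for fetal H3K27me3, H3K27me3 was at 1 fetal and 0 adult widest H3K4me3 peaks, and 1 distal element was adult only. With windows widened by 10 kb, adult H3K27me3 gave 6 peaks over 2169 bp, of which 1068 bp were at Cebpa. Keeping only peaks wholly inside a window moved none of 16 values.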
